A study of Mus musculus with 18 samples.

Results

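Cytosolic ribosomal protein genes are described here in mouse embryonic stem cells (ESCs) and in epiblast-like cells (EpiLCs) derived from them, with and without Δ9-tetrahydrocannabinol (Δ9-THC). They were chosen by symbol: Rpl or Rps followed by digits, with an optional letter or paralog suffix, together with Rplp0, Rplp1, Rplp2 and Rpsa. Rps6k kinases and symbols ending in -ps were left out, and genes of ribosomal proteins under other kinds of names fall outside the rule. The rule found 89 of the 13104 genes in the ESC table and 88 of the 13717 in the EpiLC table, or 89 of 14411 genes in either table. Of these, 53 encode large subunit proteins and 36 small subunit proteins, and Rpl3l, a large subunit paralog known from muscle, was in the ESC table alone. The annotation used here calls 5 of them processed pseudogenes (Rps3a2, Rps3a3, Rps4l, Rpl37rt and Rpl6l), so 84 were annotated as protein-coding in ESCs and 83 in EpiLCs.

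The study asked whether exposure to Δ9-THC, the main psychoactive compound of cannabis, alters early embryonic cell states modelled in culture. The 12 poly(A) RNA-seq libraries analysed fall into 4 groups of 3 biological replicates: vehicle ESCs, ESCs with 100 nM Δ9-THC, vehicle EpiLCs and EpiLCs with 100 nM Δ9-THC. All groups come from ESCs that carry the fluorescent reporters Blimp1::mVenus and Stella::ECFP. The methods name a female and a male clone of these cells. The study gives its first ESC data as from female cells and names male cells only for added experiments, while the labels name no clone. The groups may stand for 1 clone. ESCs were kept in 2i medium with leukemia inhibitory factor, and EpiLCs were induced with activin A, basic fibroblast growth factor and serum replacement. Vehicle cultures received the same amount of ethanol as exposed cultures. The study describes the sequenced cells as exposed without a break through both stages, with 48 hr given per exposure, so the exposed EpiLCs came from ESCs already exposed.

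Each ribosome joins a large subunit, which forms peptide bonds, with a small subunit, which decodes the mRNA, and each subunit is built from ribosomal RNA and single copies of most of its proteins. Because the proteins are needed in near-equal amounts, their genes are among the most highly expressed in growing cells, and their mRNAs start with a pyrimidine tract through which mTOR signalling controls their translation. Pluripotent cells make ribosomes at high rates, and free ribosomal proteins such as RPL5 and RPL11 bind MDM2 and stabilise p53.

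Library totals ranged from 23427551 counts in EpiLC vehicle replicate 3 to 32096698 in ESC vehicle replicate 1. In ESCs, vehicle libraries held 32096698, 26912806 and 28078474 counts and Δ9-THC libraries 24295632, 30529527 and 24103915. In EpiLCs, vehicle libraries held 28703078, 32078776 and 23427551 counts and Δ9-THC libraries 26105319, 25090577 and 28633296. Levels are given as CPM, counts per 1000000 counts. Counting error matters most for Rpl24, Rpl3l, Rpl37rt, Rpl6l and Rps27rt, none of which exceeded 6.82 CPM over library totals in any library, and for Rps10 in ESCs.

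The labelled cell types were checked against marker genes. All 10 naive ESC markers were lower in vehicle EpiLCs than in vehicle ESCs, with summed levels of 4788 to 5123 CPM in vehicle ESCs and 334 to 358 CPM in vehicle EpiLCs. Their most abundant gene was Tfcp2l1 in ESCs and Nanog in EpiLCs. All 6 EpiLC markers found in both tables were higher in vehicle EpiLCs, and the 8 in the EpiLC table summed to 1688 to 2064 CPM, led by Dnmt3b. The shared pluripotency markers Pou5f1, Sox2 and Lin28a summed to 845 to 891 CPM in vehicle ESCs and 882 to 993 CPM in vehicle EpiLCs, but mean Sox2 was lower in EpiLCs (384 and 91.2 CPM), Lin28a higher (99.1 and 478 CPM) and Pou5f1 close (379 and 364 CPM). Of 4 endoderm markers only Gata4 was in the tables, at most 3.46 CPM, and Gata6, Sox17 and Foxa2 were in neither. Fibroblast markers (4 of 6 in the EpiLC table) summed to at most 19.6 CPM, neural markers (2 of 3) to at most 20.5 CPM and markers of 2-cell-like cells (2 of 4) to at most 7.21 CPM. Primordial germ cell markers summed to at most 208 CPM in ESCs, led by Tfap2c, and at most 61.1 CPM in EpiLCs. Marker sums that separate Δ9-THC from vehicle are given with the comparisons below.

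Within each cell type, the vehicle and Δ9-THC libraries that carry the same replicate number deviated from their group means in opposite directions across genes. The libraries are therefore not independent of each other, and the SDs and p-values below do not give the spread between separate cultures.

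The ribosomal protein genes are spread over 19 chromosomes, with 14 of them on chromosome 7. Their transcripts are short, with a median length of 774.5 nt for the principal transcript of the 84 protein-coding ones, against 2863 nt over all genes that have one and 1280 nt over 77 mitochondrial ribosomal protein genes. They also share much sequence with other genes. Over these 84 a median of 36.8% of the 100-base windows of the principal transcript occurred in another gene's transcript, against 0 for mitochondrial ribosomal protein genes. In 31 genes over 50% of the windows were shared, and in 9 none was. Reads that align to several places were not counted, so the levels of genes that share sequence are uncertain. Exons of other genes overlapped 38 of them, and the overlap exceeded 25% of the exonic bases in 7: Rpl35 (66.2%), Rpl23a (62.3%), Rpl24 (47.0%), Rpl13a (35.4%), Rps10 (28.7%), Rpl5 (26.7%) and Rpl31 (25.3%). Reads in such overlaps were not counted for either gene, and the counting ignored strand.

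Levels are compared between genes as CPM per kb of exon over the vehicle libraries. The median level was 502 CPM per kb (1043 with the longest coding transcript as the length), with 440 over the large subunit genes and 541 over the small subunit genes. The highest levels of large subunit genes were 2508 ± 447 CPM per kb (SD over 6 libraries) for Rplp1, 1640 ± 201 for Rpl4 and 1608 ± 220 for Rpl8. These SDs pool the 3 ESC and 3 EpiLC libraries, so they include the difference between the cell types. Rplp1 encodes an acidic protein of the stalk that binds elongation factors, and RPL8 lies near the peptidyl transferase centre. Among small subunit genes the highest levels were 1686 ± 100 CPM per kb for Rps4x, 1617 ± 448 for Rps15 and 1505 ± 109 for Rps2. Rps15 lay below Rps4x in ESCs (1282 ± 76.4 and 1717 ± 133) but above it in EpiLCs (1953 ± 397 and 1656 ± 68.3). Rpl8 likewise lay below Rpl4 in ESCs (1421 ± 44.8 and 1506 ± 51.1) and above it in EpiLCs (1795 ± 119 and 1773 ± 213). The lowest levels of large subunit genes were 0.750 CPM per kb for Rpl24, 0.910 for Rpl3l (3 ESC libraries) and 5.11 for Rpl6l. Among small subunit genes they were 4.31 CPM per kb for Rps10, 11.3 for Rps27rt and 81.6 for Rps3a2. Rpl24 and Rps10 encode core ribosomal proteins, and exons of other genes overlap both, as given above. Of their windows 80.1% and 47.7% are shared with other genes. The part of overlap and sharing in these low levels was not tested. The order depends on the length used. With transcript lengths in place of exon unions, 2 of the 3 highest genes of each subunit were the same, but Rpl10 came above Rplp1, at 2715 CPM per kb of longest coding transcript and 2905 of principal transcript, against 2508 by both.

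Together the ribosomal protein genes took 7.15%, 7.72% and 7.92% of the counts in the 3 vehicle ESC libraries and 7.49%, 6.90% and 6.74% in the 3 Δ9-THC ESC libraries. The highest Δ9-THC library lay above the lowest vehicle library, so the groups overlapped, with means of 7.60% ± 0.399 and 7.04% ± 0.393 (SD over 3 libraries). In EpiLCs the shares were 10.4%, 8.11% and 9.79% with vehicle and 7.96%, 10.1% and 8.59% with Δ9-THC. The means were 9.44% ± 1.20 and 8.90% ± 1.12, and the groups overlapped more widely, since the second Δ9-THC library lay above 2 of the 3 vehicle libraries. In these bulk samples a smaller number of cells with high levels and less RNA per cell cannot be told apart.

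Large subunit genes took 4.33% ± 0.218 of the counts in vehicle ESCs and 4.01% ± 0.215 with Δ9-THC, and small subunit genes 3.27% ± 0.181 and 3.03% ± 0.179. In EpiLCs the large subunit share was 5.47% ± 0.706 with vehicle and 5.14% ± 0.658 with Δ9-THC, and the small subunit share 3.98% ± 0.493 and 3.75% ± 0.465. The ratio of large to small subunit counts was 1.33 in both ESC groups, with single libraries from 1.32 to 1.34. In EpiLCs the ratio was 1.37 in both groups, from 1.36 to 1.40 with vehicle and 1.35 to 1.38 with Δ9-THC. The subunits kept a near-constant proportion within each cell type. Every EpiLC library lay above every ESC library in this ratio, though the tables were adjusted separately. Mitochondrial ribosomal protein genes, which build a separate ribosome, took 0.372% ± 0.0149 of counts in vehicle ESCs, 0.360% ± 0.0144 in Δ9-THC ESCs, 0.464% ± 0.0278 in vehicle EpiLCs and 0.430% ± 0.0288 in Δ9-THC EpiLCs.

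**Figure D1:**
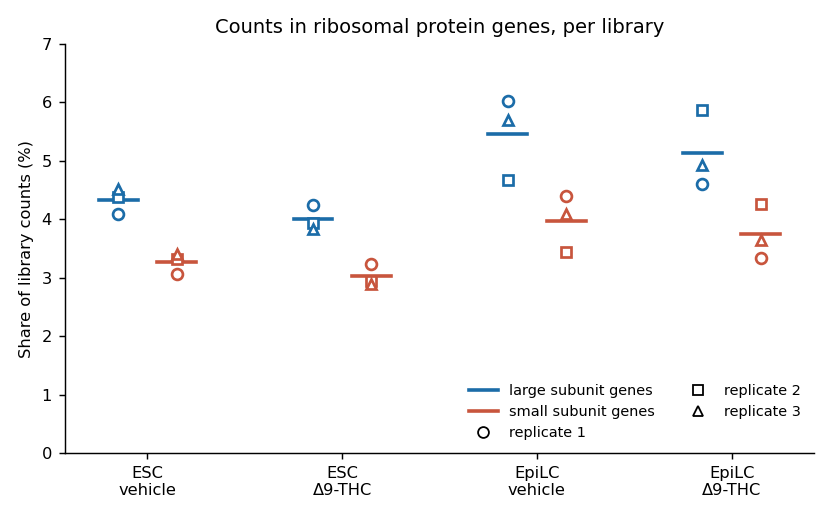
Share of library counts (%) in large (blue) and small (red) subunit genes for each of the 12 libraries; symbols mark the replicate number and bars the mean of 3 libraries. Groups with and without Δ9-THC overlap for both subunits in both cell types.

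The most abundant row outside the ribosomal protein genes, ENSMUSG00000119584, to which no symbol was matched, took 0.477% to 0.639% of counts in vehicle ESC libraries and 2.46% to 3.19% with Δ9-THC. In EpiLCs its share was 0.779% to 3.88% with vehicle and 0.418% to 3.97% with Δ9-THC, without separation. With the 10 most abundant other genes taken out of the library total, the ribosomal protein share was 8.10% in vehicle ESCs and 7.67% in Δ9-THC ESCs. Beyond that recalculation, the part of this row in the ribosomal protein shares was not tested.

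Scaled by the trimmed mean of M-values (TMM), the genes moved together from library to library. In ESCs the median log2 deviation from a gene's own mean was −0.09, 0.05 and 0.10 in the vehicle libraries and 0.09, −0.05 and −0.10 in the Δ9-THC libraries. Vehicle replicate 1 was low in 80 of 89 genes and Δ9-THC replicate 1 was high in 80 of 89, so each group held libraries on both sides. In EpiLCs the median deviation was 0.21, −0.20 and 0.17 with vehicle and −0.20, 0.18 and −0.14 with Δ9-THC. Vehicle replicate 2 was low in 76 of 88 genes and Δ9-THC replicate 2 was high in 77 of 88, while the other libraries of each group lay on the opposite side. Medians over all genes stayed between −0.01 and 0.01 in every library. Mitochondrial ribosomal protein genes had medians of the same sign in every EpiLC library, at 0.11, −0.04 and 0.12 with vehicle and −0.11, 0.03 and −0.11 with Δ9-THC. In ESCs their medians were −0.05, −0.03 and 0.08 with vehicle and 0.04, 0.03 and −0.08 with Δ9-THC, with replicate 2 on the other side. Large and small subunit genes had like medians: in EpiLC vehicle replicate 1, 0.21 for large and 0.20 for small subunit genes.

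**Figure D2:**
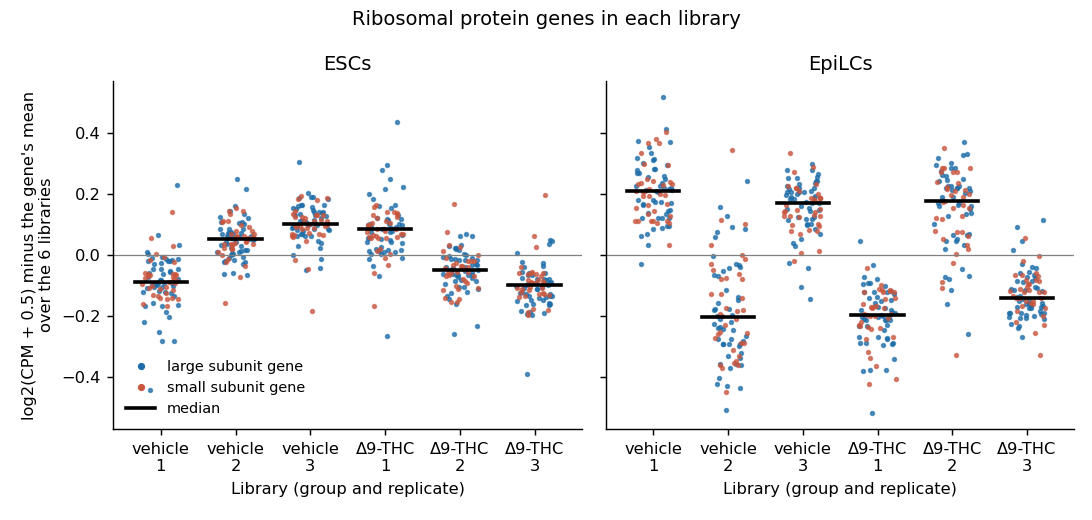
Deviation of each ribosomal protein gene in each library, as log2(CPM + 0.5) minus the gene's mean over the 6 libraries of its cell type; bars are medians. Libraries of 1 group lie on both sides of 0 in both cell types, with medians from −0.10 to 0.10 in ESCs and −0.20 to 0.21 in EpiLCs.

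The first comparison asked which ribosomal protein genes differ between Δ9-THC and vehicle in ESCs. By the quasi-likelihood test of edgeR, adjusted over all genes by the Benjamini-Hochberg method, 1 of 89 passed an adjusted p-value of 0.05, against 906 of 13104 genes (6.91%); it was lower with Δ9-THC, as were 465 of all genes (3.55%). At an unadjusted p below 0.05 there were 11 of 89, against 28.7% of all genes, and 10 of the 11 were lower. DESeq2 passed 4 of 89 (Rpl13, Rps2, Rpl29 and Rpl36, all lower), against 5.79% of all genes. The log2(fold-change) was negative for 69 of 89 genes, with a median of −0.05 against 0.004 over all genes. Large subunit genes had a median of −0.04 with 40 of 53 negative, and small subunit genes −0.05 with 29 of 36 negative. Leaving out 1 library at a time moved the median to −0.11 without Δ9-THC replicate 1, −0.10 without vehicle replicate 1 and −0.01 without replicate 3 of either group, with 50 to 79 genes negative. When any 1 of the 6 libraries was left out, 0 ribosomal protein genes and 0 or 1 of all genes passed (1 without vehicle or Δ9-THC replicate 2), so the number of calls rests on having all 6 libraries. The summed shared pluripotency markers were lower in every Δ9-THC ESC library than in every vehicle library. The sum stood at 845, 891 and 850 CPM with vehicle and 804, 761 and 805 CPM with Δ9-THC. Of the 3 genes in this sum only Pou5f1 was lower in its fit (−0.24), while Sox2 (0.01) and Lin28a (0.12) were positive, and 0 of 3 passed by edgeR.

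Rpl13 (ENSMUSG00000000740, chr8:123102350-123105244 in GRCm38), which encodes the large subunit protein eL13, was the 1 gene that passed. Its vehicle libraries stood at 1390, 1389 and 1452 CPM and its Δ9-THC libraries at 1267, 1272 and 1222 CPM. All 3 Δ9-THC libraries lay below all 3 vehicle libraries. It fell by 0.17 on the log2 scale (SE 0.032, adjusted p = 0.0384, edgeR quasi-likelihood, Benjamini-Hochberg). The call was lost when any 1 of the 6 libraries was left out, with adjusted p-values of 0.0746 to 0.139 (edgeR quasi-likelihood, Benjamini-Hochberg). A replicate block also ended it (adjusted p = 0.425, edgeR quasi-likelihood, Benjamini-Hochberg), as did GC and length offsets (adjusted p = 0.0988, same test). Over all alternatives the adjusted p-values ranged from 0.00401 to 0.926. In Rpl13, 78.9% of the windows are shared with other genes. For Rps2, Rpl10 and Rpl15, described below, this share is 64.7%, 91.6% and 73.4%.

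Rps2, which encodes uS5 near the mRNA entry channel, stood at 2733, 2854 and 2957 CPM with vehicle and 2616, 2513 and 2434 CPM with Δ9-THC. Its groups did not overlap, with a log2(fold-change) of −0.18 (SE 0.043), and it missed the threshold with an adjusted p of 0.0576 (edgeR quasi-likelihood, Benjamini-Hochberg). Rpl36, a large subunit gene, stood at 354, 379 and 394 CPM with vehicle and 349, 327 and 315 CPM with Δ9-THC. The Δ9-THC libraries were all below the vehicle libraries, though the nearest pair was 354 and 349 CPM, and the log2(fold-change) was −0.19 (SE 0.053, edgeR quasi-likelihood, Benjamini-Hochberg adjusted p = 0.0802). Rpl29, another large subunit gene, stood at 337, 342 and 355 CPM with vehicle and 321, 317 and 306 CPM with Δ9-THC. All 3 were again lower, with a log2(fold-change) of −0.13 (SE 0.032, edgeR quasi-likelihood, Benjamini-Hochberg adjusted p = 0.0577).

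In all, 6 of 89 genes were lower in every Δ9-THC ESC library than in every vehicle library (Rpl13, Rps2, Rpl29, Rpl36, Rpl8 and Rpsa), against 15.9% of all genes. Rpsa, the laminin receptor precursor that also sits on the small subunit, stood at 2612, 2675 and 2838 CPM with vehicle and 2588, 2536 and 2397 CPM with Δ9-THC. Its groups were separate by a narrow gap, with a log2(fold-change) of −0.11 (SE 0.045, edgeR quasi-likelihood, Benjamini-Hochberg adjusted p = 0.165).

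Higher in every Δ9-THC ESC library were 3 of 89 genes (Rpl10l, Rpl24 and Rpl39l), against 16.7% of all genes. Rpl10l, an autosomal copy of X-linked Rpl10 known for its role in male meiosis, stood at 65.3, 63.3 and 64.1 CPM with vehicle and 66.7, 69.0 and 68.5 CPM with Δ9-THC. The groups were separate, with a log2(fold-change) of 0.08 (SE 0.030). Rpl39l, the paralog of Rpl39 known from testis, stood at 22.1, 23.7 and 24.0 CPM with vehicle and 26.0, 24.4 and 24.1 CPM with Δ9-THC. The nearest libraries of its 2 groups differed by about 0.1 CPM, its log2(fold-change) was 0.09 (SE 0.052), and the direction turned with corrections for GC content and length. Rpl24 had 48 counts over the 3 vehicle libraries and 64 over the 3 Δ9-THC libraries, too few to place it.

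In EpiLCs, the quasi-likelihood test of edgeR passed 0 of 88 ribosomal protein genes and 0 of 13717 genes (0.00%). At an unadjusted p below 0.05 there were 5 of 88, all lower, against 15.1% of all genes, and DESeq2 passed 1 (Rps10), against 0.634% of all genes. With the 12 libraries in 1 fit, edgeR also passed 1 (Rps10), against 411 of 12410 genes. The log2(fold-change) was negative for 86 of 88 genes, with a median of −0.12 against 0.003 over all genes. Large subunit genes had a median of −0.13 with 51 of 52 negative, and small subunit genes −0.12 with 35 of 36 negative. The median depended on single libraries: leaving out replicate 2 took it to −0.24 (Δ9-THC) or −0.23 (vehicle), and leaving out replicate 1 to −0.07 (Δ9-THC) or −0.04 (vehicle). It was also −0.07 when replicate 3 of vehicle was dropped, and 59 to 88 genes were negative. The exceptions in sign were Rps12, at 1500, 951 and 1493 CPM with vehicle and 1153, 1657 and 1177 CPM with Δ9-THC, and Rpl37rt, which has 4.02 to 6.73 CPM. Both overlapped widely between groups, and their sign turned without vehicle or Δ9-THC replicate 2. The summed naive ESC markers were higher in every Δ9-THC EpiLC library, at 345, 334 and 358 CPM with vehicle and 388, 407 and 375 CPM with Δ9-THC. Nanog, the most abundant of them, had 0.13, Nr0b1 was negative (−0.02), and 0 of 10 passed by edgeR.

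Every Δ9-THC library was below every vehicle library in 8 of 88 genes (Rps10, Rps3a2, Rpl15, Rpl10, Rpl10l, Rpl7, Rps4x and Rps2), against 10.6% of all genes, and above in 0 of 88, against 11.2%. Rps10 (ENSMUSG00000052146, chr17:27630418-27636669 in GRCm38), a small subunit gene mutated in Diamond-Blackfan anemia, stood at 14.6, 14.0 and 13.9 CPM with vehicle and 7.99, 8.58 and 8.57 CPM with Δ9-THC. The groups were far apart, the lowest vehicle library lying well above the highest Δ9-THC library. The log2(fold-change) was −0.75 (SE 0.072) with an adjusted p of 0.144 (edgeR quasi-likelihood, Benjamini-Hochberg), lower in 3 of 3 exposed libraries. DESeq2 gave an adjusted p of 1.63e-05, and over all alternatives of DESeq2 and edgeR the range was 1.63e-05 to 0.999. Rps10 was counted at 4.31 CPM per kb against a median of 541 over small subunit genes, and exons of other genes cover 28.7% of its exonic bases, so its level is uncertain.

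Rpl15, a large subunit gene, stood at 859, 812 and 791 CPM with vehicle and 672, 721 and 733 CPM with Δ9-THC. All 3 exposed libraries were lower, with a log2(fold-change) of −0.21 (SE 0.072, edgeR quasi-likelihood, Benjamini-Hochberg adjusted p = 0.256). Rpl10, which completes the peptidyl transferase centre late in subunit maturation, stood at 2390, 2405 and 2475 CPM with vehicle and 2162, 2175 and 2106 CPM with Δ9-THC. Its groups were also separate, with a log2(fold-change) of −0.17 (SE 0.072). The pseudogene-annotated copy Rps3a2 stood at 67.6, 71.6 and 75.3 CPM with vehicle and 64.1, 61.3 and 58.1 CPM with Δ9-THC. Its groups did not overlap either, with a log2(fold-change) of −0.23 (SE 0.068, edgeR quasi-likelihood, Benjamini-Hochberg adjusted p = 0.222). Rps6, the small subunit protein phosphorylated by S6 kinase, overlapped at 1622, 1502 and 1681 CPM with vehicle and 1380, 1505 and 1344 CPM with Δ9-THC, where Δ9-THC replicate 2 lay above vehicle replicate 2. Its log2(fold-change) was −0.18 (SE 0.084).

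**Figure D3:**
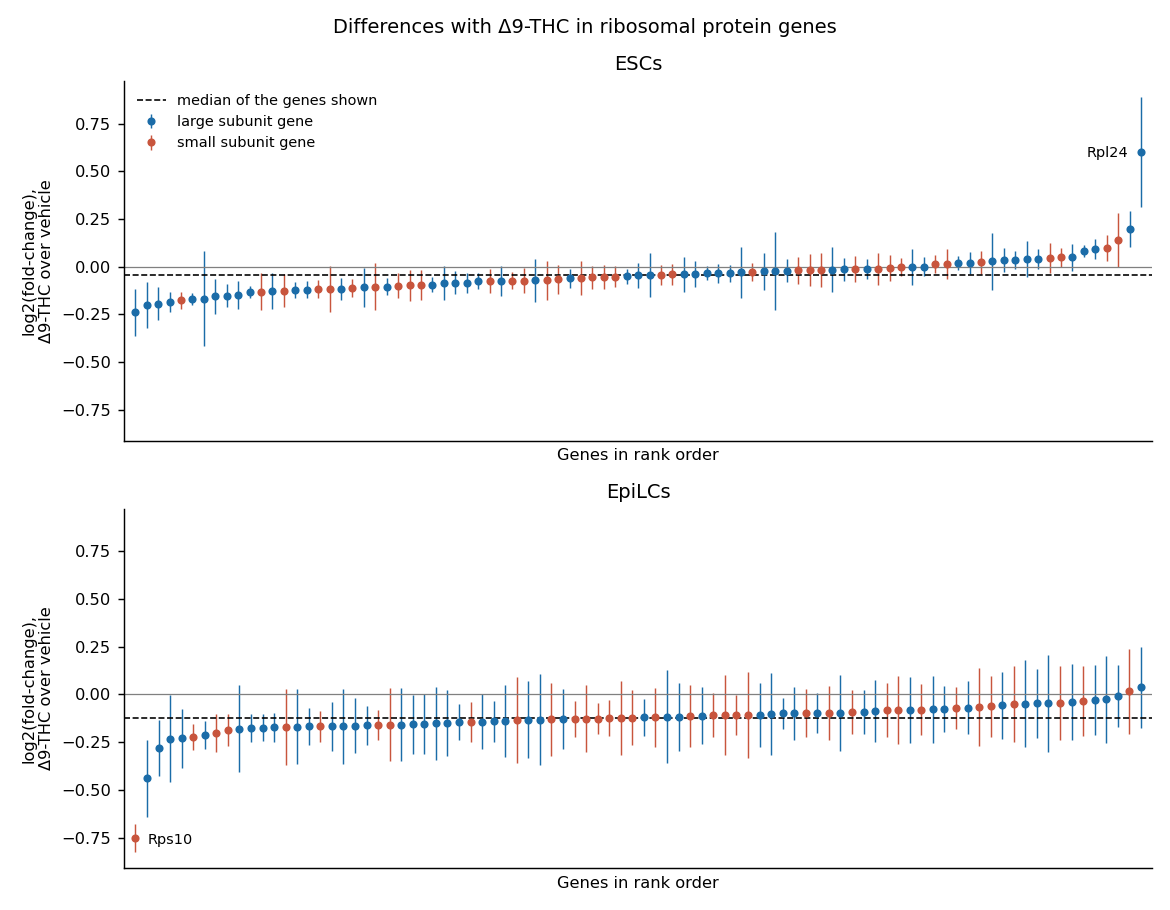
Log2(fold-change) of Δ9-THC over vehicle for each ribosomal protein gene in ESCs (top, 89 genes) and EpiLCs (bottom, 88 genes), ± SE derived from the edgeR F statistic. The dashed line is the median. Medians are −0.05 and −0.12, and Rps10 in EpiLCs (−0.75) and Rpl24 in ESCs (0.60) lie farthest out.

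Whether the difference with Δ9-THC itself differs between EpiLCs and ESCs was tested as an interaction over the 12 libraries and the 12410 genes in both tables. By the quasi-likelihood test of edgeR 0 of 88 ribosomal protein genes passed, against 4 of all genes (0.0322%), and those 4 were lost when any 1 of the 12 libraries was left out. At an unadjusted p below 0.05 there were 6 of 88, against 13.7% of all genes, and DESeq2 passed 1 (Rps10), against 1.07%. The median interaction, EpiLC minus ESC, was −0.04 against 0.01 over all genes. It ran from −0.17 without EpiLC Δ9-THC replicate 2 to 0.04 without EpiLC vehicle replicate 1, and was also above 0 without replicate 1 of the other 3 groups. With corrections for GC content and length the median interaction was −0.014, against −0.014 over all genes. In ESCs Rps10 stood at 6.76, 5.40 and 5.30 CPM with vehicle and 5.36, 6.89 and 7.04 CPM with Δ9-THC. Those ESC groups overlapped, and the interaction was −0.88 (SE 0.164), missing the threshold at an adjusted p of 0.0623 (edgeR quasi-likelihood, Benjamini-Hochberg). Rpl10l lay on opposite sides in the cell types, above vehicle in all 3 ESC libraries and below in all 3 EpiLC libraries. In EpiLCs it stood at 34.7, 32.1 and 31.4 CPM with vehicle and 27.0, 29.8 and 30.1 CPM with Δ9-THC. The interaction for Rpl10l was −0.24 (SE 0.083) and did not pass (adjusted p = 0.230, edgeR quasi-likelihood, Benjamini-Hochberg).

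Among genes with roles beyond the ribosome's structure, those that follow overlapped between vehicle and Δ9-THC in both cell types. Rpl5, which carries 5S ribosomal RNA and binds MDM2, stood at 1356, 1458 and 1477 CPM in vehicle ESCs and 1539, 1435 and 1423 CPM with Δ9-THC. Its partner Rpl11 stood at 615, 653 and 696 CPM and 684, 647 and 607 CPM. Neither gene separated the groups, and in EpiLCs Rpl11 ran from 891 to 1192 CPM with vehicle and 889 to 1147 CPM with Δ9-THC. The stalk gene Rplp0 had a log2(fold-change) of −0.08 (SE 0.042) in ESCs and −0.10 (SE 0.105) in EpiLCs. Rplp1 had −0.15 (SE 0.060) and −0.09 (SE 0.161), and Rplp2 had −0.19 (SE 0.088) and −0.10 (SE 0.214). The stalk genes thus lay below vehicle in mean with wide errors in EpiLCs, where the sign of Rplp1 turned without vehicle replicate 1 and under GC and length correction, and that of Rplp2 without vehicle replicate 3. Rps19, the gene most often mutated in Diamond-Blackfan anemia, had −0.09 (SE 0.078) in ESCs and −0.05 (SE 0.195) in EpiLCs. Rps3, which also acts in DNA repair, had 0.01 (SE 0.048) and −0.13 (SE 0.081), and Rps27a, made as a fusion with ubiquitin, had −0.04 (SE 0.053) and −0.14 (SE 0.105).

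Paralogs of a ribosomal protein were present at widely different levels, compared here as CPM per kb of exon in vehicle ESCs with the SD over 3 libraries. Rpl3l stood at 0.910 ± 0.193 CPM per kb and Rpl3 at 599.6 ± 14.6. Rpl22l1 stood at 34.9 ± 3.14 CPM per kb and Rpl22, its counterpart, at 188 ± 9.90. Rpl7l1, whose protein acts in ribosome assembly, stood at 74.0 ± 2.88 CPM per kb and Rpl7 at 693 ± 30.2. In each of these pairs the core gene was the more abundant by far more than the SDs. Rps27l, a p53 target, stood at 201 ± 12.4 CPM per kb beside 443 ± 38.3 for Rps27, and Rps4l, annotated as a pseudogene, at 475 ± 19.9 beside 1717 ± 133 for the X-linked Rps4x. With Δ9-THC the log2(fold-change) of Rpl22l1 was 0.20 (SE 0.093) in ESCs and −0.23 (SE 0.153) in EpiLCs, with overlapping groups in both. None of these paralogs or counterparts passed in either cell type or in the interaction by edgeR, and none passed by DESeq2.

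The vehicle libraries also give the levels of the genes in each cell type. Because the ESC and EpiLC tables were adjusted separately, no test was made between them. Among 88 genes in both tables, 83 were higher in vehicle EpiLCs by mean CPM over library totals, with a median log2 ratio of 0.37 (1.29-fold) against −0.04 over all genes. Every EpiLC library was above every ESC library for 53 of 88, against 34.6% of all genes, and below for 3, against 40.4%. The median ratio was 0.37 for large and 0.37 for small subunit genes, and 0.34 for mitochondrial ribosomal protein genes. Between single library pairs it ran from 0.07 (EpiLC replicate 2 over ESC replicate 3) to 0.68 (EpiLC replicate 1 over ESC replicate 1).

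Rps10 was higher by the most, at 6.92, 5.50 and 5.34 CPM in vehicle ESCs and 14.8, 13.8 and 13.4 CPM in vehicle EpiLCs, a log2 ratio of 1.24. With Δ9-THC in both cell types its ratio was 0.42. Rpl13a, whose protein also belongs to the interferon-gamma-activated inhibitor of translation, stood at 29.2, 30.0 and 33.0 CPM in ESCs and 80.0, 46.9 and 69.4 CPM in EpiLCs, a log2 ratio of 1.09. Both sets of libraries were separate, though the EpiLC values of Rpl13a were widely spread. Rpl24 had a ratio of 0.81 with vehicle and −0.15 with Δ9-THC, from 48 counts over the 3 vehicle ESC libraries, too few to place it. Rpl38 (0.74), known for its part in the translation of Hox mRNAs, stood at 206, 251 and 269 CPM in ESCs and 487, 282 and 441 CPM in EpiLCs.

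The 5 genes with a lower mean in EpiLCs were Rpl10l (−1.01), Rpl7l1 (−0.34), Rps2 (−0.15), Rps4x (−0.05) and Rps20 (−0.01). Rpl10l stood at 66.8, 64.5 and 64.7 CPM in vehicle ESCs and 35.2, 31.8 and 30.3 CPM in vehicle EpiLCs. Its cell types were fully separate and its ratio the other way from that of Rpl10, the gene it was copied from. Rpl7l1 stood at 247, 267 and 262 CPM and 206, 220 and 186 CPM, also separate. Rps2 was separate by a small gap, and Rps4x and Rps20 overlapped between the cell types.

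**Figure D4:**
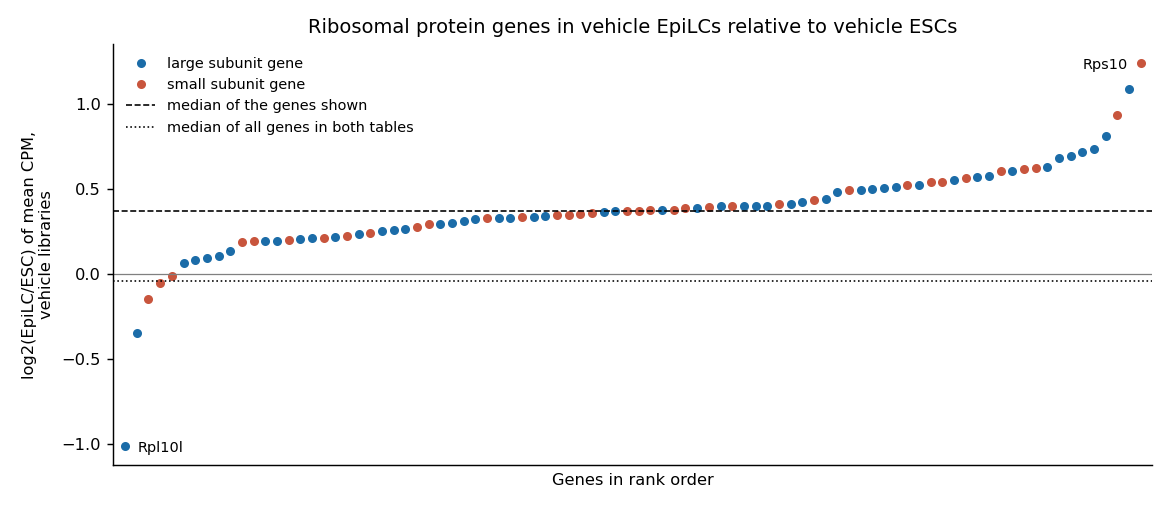
Log2 ratio of mean CPM in vehicle EpiLCs over vehicle ESCs for the 88 genes in both tables, in rank order; the dashed line is their median (0.37) and the dotted line the median of all genes (−0.04). Of the 88, 83 lie above 0 and Rpl10l lies lowest at −1.01.

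The starts of the transcripts were searched for a pyrimidine tract, known for its part in the translation of these mRNAs; its link to the levels above was not tested. RefSeq promoters on GRCm38.p6 (250 bases before to 50 after the start) matched 65 of the 89 genes by symbol. A run of at least 10 C or T bases reaching within 15 bases of the start on the sense strand was found in 24 of 65 genes (36.9%), in 18 of 40 large and 6 of 25 small subunit genes. Of the genes in the tables that have a promoter 11.1% held such a run, as did 10.4% of all genes with a promoter, 8.95% of all promoters and 8.82% of mitochondrial ribosomal protein genes. The ETS-family motif CCGGAAG, on either strand in the 300 bases, was found in 26 of 65 (40.0%), against 19.6% of genes in the tables, 9.93% of all genes, 8.86% of all promoters and 36.8% of mitochondrial ribosomal protein genes. The 30 bases around the start are given for Rps10 (chr17:27635230-27635259, minus strand), Rpl15 (chr14:18270972-18271001, minus), Rps6 (chr4:86857353-86857382, minus), Rplp2 (chr7:141447636-141447665, plus), Rps2 (chr17:24720048-24720077, plus) and Rpl10 (chrX:74270801-74270830, plus), with the tract in capitals.
Rps10: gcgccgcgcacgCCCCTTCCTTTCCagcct
Rpl15: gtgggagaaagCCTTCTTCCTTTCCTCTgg
Rps6: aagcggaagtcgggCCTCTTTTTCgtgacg
Rplp2: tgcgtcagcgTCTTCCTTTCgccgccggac
Rps2: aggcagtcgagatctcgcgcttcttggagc
Rpl10: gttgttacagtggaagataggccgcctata
In these windows Rps10 and Rpl15, which were lower with Δ9-THC in EpiLCs without overlap, hold tracts of 13 and 17 bases. Rps2 and Rpl10, also without overlap there, hold none of 10 or more. Shorter runs were not counted, nor starts outside the RefSeq promoters, so the search cannot show that an mRNA lacks a tract. Of the 8 genes without overlap 6 have a promoter, and 2 of the 6 hold a tract, against 36.9% of the ribosomal protein genes.

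Genes that act with the ribosomal proteins were described as well. Of 21 other mRNAs with 5′ pyrimidine tracts, among them elongation factors, 3 rose in ESCs (Hnrnpa1, Nap1l1 and Eif3e, by 0.16, 0.17 and 0.13 on the log2 scale) and none fell, against 3.37% of all genes higher and 3.55% lower. There DESeq2 passed 6 of 21, against 5.79% of all genes, 7 had an unadjusted p below 0.05, against 28.7%, and the median was −0.003. In EpiLCs 0 of 21 passed by edgeR or DESeq2, 3 had an unadjusted p below 0.05, against 15.1% of all genes, 19 were negative and the median was −0.11.

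Of 21 regulators of ribosomal protein synthesis, 3 rose in ESCs: Gabpa, an ETS-family transcription factor (0.17), Rheb, the activator of mTOR (0.15), and Cnbp, which binds pyrimidine-tract mRNAs (0.13). None fell, DESeq2 passed 3 of 21, and 9 had an unadjusted p below 0.05. The shares over all genes are those given above for the pyrimidine-tract list, here and for the lists that follow. In EpiLCs 0 of 21 passed by edgeR or DESeq2 and 1 had an unadjusted p below 0.05, the transcription factor Myc, at 55.6, 66.3 and 64.4 CPM with vehicle and 81.8, 68.5 and 71.4 CPM with Δ9-THC. All 3 exposed libraries were higher, with a log2(fold-change) of 0.25 (SE 0.099). Of 5 genes of the p53 response to free ribosomal proteins 0 passed by edgeR in either cell type, with 2 in ESCs and 1 in EpiLCs at an unadjusted p below 0.05. DESeq2 passed 0 of the 5 in ESCs and 1 in EpiLCs (Mdm4, higher), against 0.634% of all genes in EpiLCs. Of 13 assembly chaperones 11 were tested and 0 passed by edgeR or DESeq2 in either cell type, with 2 in each at an unadjusted p below 0.05 and medians of 0.05 and −0.10.

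Of 77 mitochondrial ribosomal protein genes, 3 rose in ESCs (Mrpl33, Mrpl1 and Mrpl32, by 0.43, 0.24 and 0.19) and none fell, DESeq2 passed 2, 10 had an unadjusted p below 0.05 and the median was −0.01. In EpiLCs 0 of 77 passed by edgeR or DESeq2, 14 had an unadjusted p below 0.05, against 15.1% of all genes, and 73 were negative with a median of −0.14, beside −0.12 for the cytosolic genes. Signs of RNA composition also differed between the groups. Lars2 stood at 162, 139 and 209 CPM in vehicle ESCs and 492, 556 and 366 CPM with Δ9-THC, and the mitochondrial 12S RNA mt-Rnr1 at 135, 134 and 159 CPM and 207, 209 and 174 CPM. Both were higher in all 3 exposed libraries and rose by 1.47 and 0.47 on the log2 scale, 2 of a list of 3 with mt-Rnr2, of which in EpiLCs 0 passed by edgeR or DESeq2 and 0 had an unadjusted p below 0.05. Of 10 mitochondrial protein-coding genes 1 rose in ESCs (mt-Nd6, 0.39), where DESeq2 passed 2 and 2 had an unadjusted p below 0.05, and in EpiLCs 0 of 10 passed by edgeR or DESeq2 or reached an unadjusted p below 0.05, while 10 of 10 were positive. Of 22 histone genes tested in ESCs 2 rose (Hist1h1d and Hist1h3e) and 2 fell (H1fx and H2afx), where DESeq2 passed 2 and 7 had an unadjusted p below 0.05, and in EpiLCs 0 of 29 passed by edgeR or DESeq2, with 1 at an unadjusted p below 0.05. Of the 6 EpiLC markers in the ESC table, Pou3f1 and Sox3 fell by 0.96 and 0.40, while Otx2 (0.22), Lef1 (0.12), Dnmt3a (0.01) and Dnmt3b (−0.04) did not pass by edgeR. These 18 calls in ESCs were each lost when any 1 of the 6 libraries was left out, with adjusted p-values from 0.0721 to 0.157 (edgeR quasi-likelihood, Benjamini-Hochberg). DESeq2 also passed 11 of the 18 and gave no adjusted p for 4, and over all alternatives of edgeR and DESeq2 the adjusted p-values ran from 2.30e-06 to 0.993. Their part in the ribosomal protein values was not tested.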

How the data were processed

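RNA-seq counts of 12 libraries were analysed, and 6 samples of germ cell-like cells were not analysed here. The authors deposited whole-number counts per gene, adjusted between batches with ComBat-seq, in 1 table per cell type. Per the labels and the study's methods, base calls were made with bcl2fastq 2.19.1.403, reads were aligned with STAR keeping unique alignments, and HTSeq counted exons without strand. The batches are not named, and the build is named both mm10 and GRCm39; GENCODE M21 on GRCm38 was used here only for symbols, lengths and positions. Libraries were made with either of 2 kits, which cannot be told apart.

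Genes with a total above 10 counts were tested with edgeR 4.0.16 (R 4.3.3; TMM, quasi-likelihood, Benjamini-Hochberg over all genes, threshold 0.05), within each cell type and as an interaction over 12 libraries. Each SE is the absolute log2(fold-change) over the square root of the F statistic of the edgeR quasi-likelihood test. Levels beside tests are TMM-scaled CPM. Shares, levels per kb, marker sums and ratios between cell types use plain library totals. Alternatives were DESeq2 1.42.0, RLE factors, other filters, GC and length offsets, a replicate block, 1 fit of 12 libraries and leaving out each library. Tables were drawn up with Python 3.11.15 and pandas 2.3.3. The pipelines were tested on simulated data.

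Genes named are those called, the 3 smallest p-values per comparison and subunit, the 3 highest and 3 lowest levels per kb, paralogs, the 5 largest differences between cell types each way, genes with other roles, and those against the common direction. Other genes named, such as those without overlap, Myc, Mdm4 and the most abundant row, were chosen after their values were seen. Lists were other mRNAs with pyrimidine tracts, regulators, p53 response, assembly chaperones, mitochondrial ribosomal proteins, signs of RNA composition and cell type markers. Some results are not reported here. Members and lists were chosen with earlier results of these data known.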

Additional observations from a re-analysis of the deposited data

How the results depend on the processing

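The number of ribosomal protein genes called in ESCs was 1 and became 4 with DESeq2, 0 with GC and length offsets, 0 with all 12 libraries in 1 fit, and 0 to 0 over the fits that leave out a library; it was 1 with RLE factors, other filters or protein-coding genes alone. In EpiLCs the 0 calls became 1 with DESeq2 and 1 with all 12 libraries in 1 fit, and in the interaction the 0 calls became 1 with DESeq2. The cause was not tested. Over all genes, the 906 calls in ESCs became 31 with all 12 libraries in 1 fit and 2 with the offsets, the 0 in EpiLCs became 87 with DESeq2 and 411 with all 12 libraries in 1 fit, and the 4 in the interaction became 133 with DESeq2 and 0 with the offsets. The median log2(fold-change) kept its sign in both cell types under every alternative run.

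The labels give the groups the same replicate numbers without saying what a number stands for. Deviations from the group means of same-numbered vehicle and Δ9-THC libraries correlated at −0.99 to −0.98 over all genes in both cell types, and those of other pairs at 0.22 to 0.70, so no library correlates best with its own number. With a replicate block the call in ESCs went to 0, and to 0 with the offsets and the block together; over all genes 906 became 5 with the block and 3 with the block and offsets, and the interaction's 4 became 0.

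Without the 10 most abundant other genes the share was 8.10% in vehicle ESCs and 7.67% with Δ9-THC. The median level of 502 CPM per kb became 1043 with the longest coding transcript and 1223 with the principal transcript, the last chosen after seeing the data.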
